A study of Mus musculus with 6 samples.

Results

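Collagens, laminins, matrix metalloproteinases (MMPs), their tissue inhibitors (TIMPs) and ADAMTS proteases were followed in mouse liver 12 h after partial hepatectomy, the surgical removal of most of the liver. Members were chosen by gene symbol alone, from probe sets that the platform annotation assigns to 1 gene, and of a gene's several probe sets the brightest on average was used. The rule found 85 genes of 17097 measured: 42 collagens, 8 laminins, 18 MMPs, 3 TIMPs and 14 ADAMTS proteases. A further 16 genes in RefSeq have symbols of these families, among them Lama4, Lama5, Mmp15, Timp4, Adamts2 and Adamts13, and were not analysed here. The groups were 3 C57Bl/6 wildtype mice, the controls, and 3 mice of the same labelled strain with a hepatocyte-specific Klf6 knockout, called DeltaKlf6. All 6 animals had the operation, so no value before surgery or from unoperated liver was analysed here. Each array held total RNA of the remnant liver of 1 animal, and neither the promoter that drives the knockout nor the age of the mice is stated in the sources used here. Klf6 is a zinc-finger transcription factor, and the question was which transcripts of the regenerating liver differ when hepatocytes lack it.

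Collagens are triple-helical proteins. Fibrillar types I, III and V give the portal tract and the space around sinusoids their tensile strength, and type IV forms the sheet of basement membranes together with laminins, which are trimers of an alpha, a beta and a gamma chain. MMPs and ADAMTS proteases are zinc enzymes that cut these proteins and proteoglycans, and TIMPs bind and block their active site. In liver most of the fibrillar matrix and much of the TIMP1 come from hepatic stellate cells, with further contributions from portal fibroblasts and endothelium, whereas hepatocytes make up most of the tissue and of its RNA. After partial hepatectomy the matrix is first loosened by proteases and later rebuilt.

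Levels are log2 values, so that a difference of 1 is a factor of 2. To mark what the arrays could not separate from background, 42 probe sets of olfactory receptor genes, which liver is not known to use, served as a yardstick. The 95th percentile of their means was 3.47, called the olfactory level below. By this measure 35 of 85 members (41.2%) lay above it, against 61% of all genes: 19 collagens, 2 laminins, 5 MMPs, 3 TIMPs and 6 ADAMTS proteases. The other 50 were not above it, and a difference among them has no clear signal behind it. Col1a1 and Col1a2, the chains of type I collagen, belong to these dim genes (means of 2.70 and 2.74 in wildtype). Each had 1 probe set with a gene name here, so type I collagen was not measured well by the named probe sets.

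Klf6 itself was read by 3 probe sets. In the library labelled DeltaKlf6 1 they lay 2.13, 1.82 and 2.12 above the wildtype mean, against -0.87, 0.05 and -0.30 in DeltaKlf6 2 and -0.86, -0.32 and -1.75 in DeltaKlf6 3. Whether they read the deleted part of the gene is not known, and every direction below is therefore between libraries as labelled. The arrays of the wildtype group correlated at 0.982 to 0.983 across genes and those of DeltaKlf6 at 0.946 to 0.964. The library labelled DeltaKlf6 3 stood apart with an upper quartile of 5.08, against 5.50 to 5.63 in the others. The 3' minus 5' signal of the Gapdh controls, a measure of RNA and labelling quality, was 3.47, 3.45 and 4.83 in DeltaKlf6 1, 2 and 3 and 4.06 to 4.43 in wildtype. For the actin controls DeltaKlf6 3, at 5.05, lay inside the wildtype range of 4.86 to 5.39, and DeltaKlf6 1, at 4.22, and DeltaKlf6 2 lay below it. All 12 hepatocyte markers lay above the olfactory level in these libraries.

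No member of the 5 families passed the test between DeltaKlf6 and wildtype. With limma and Benjamini-Hochberg adjustment over all 17097 genes, 0 of 85 members were called, against 0% of all genes, and the smallest adjusted p of a member was 0.992. At an unadjusted p under 0.05 there were 2 members, Mmp14 and Lamc3, both lower (2.35% of members, against 3.69% of all genes in either direction, 2.48% lower and 1.21% higher). The groups did not overlap for 4 members (4.71%), against 9.32% of all genes: Mmp14, Lamc3 and Mmp16 were lower, against 5.91% of all genes on that side, and Col2a1 was higher, against 3.41%. By group mean 44 members (51.8%) were higher, against 48.4% of all genes, and 41 (48.2%) lower, against 51.6%. The median log2 difference was 0.005 over the members and -0.011 over all genes. These shares of members were near or below those of all genes.

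**Figure D1:**
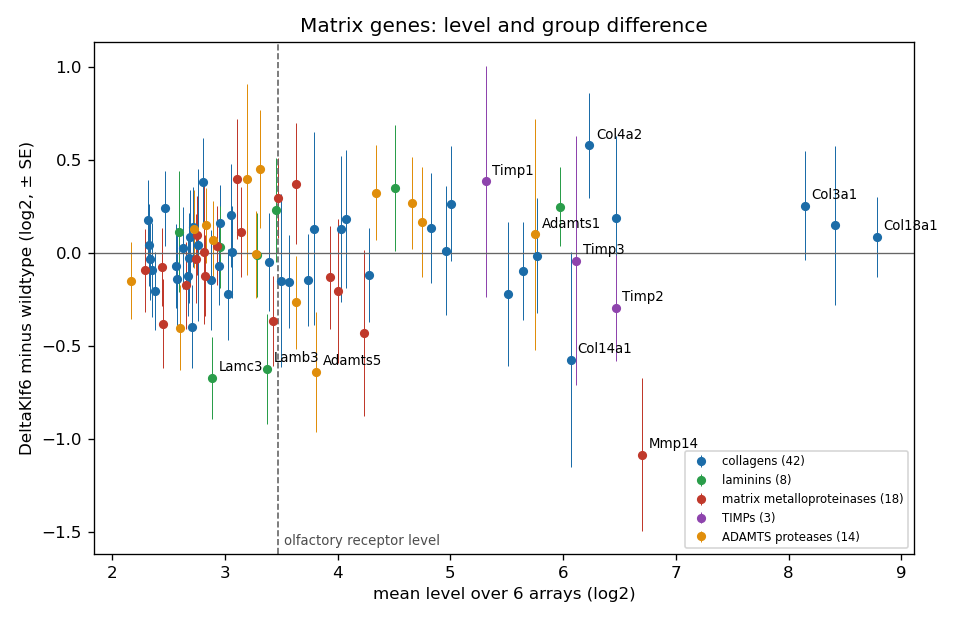
Each point is 1 of the 85 genes, with the mean level over 6 arrays (log2) on the x axis and the difference DeltaKlf6 minus wildtype (log2, with its standard error) on the y axis; colours mark the 5 families and the dashed line the olfactory level of 3.47. Most points lie near 0, and Mmp14 at -1.09 is the lowest.

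The family medians, between which no test was run, were small over all members. Of 42 collagens 22 were higher and 20 lower by group mean, with a median of 0.008 (range -0.57 to 0.58). Among 8 laminins 5 were higher (median 0.07), among 18 MMPs 7 (median -0.085), among 3 TIMPs 1 (median -0.042) and among 14 ADAMTS proteases 9 (median 0.11). The 35 members above the olfactory level had 19 higher and 16 lower, with a median of 0.086, beside -0.049 over all genes above it. Among them the median was 0.30 for the 2 laminins and -0.21 for the 5 MMPs. A wider range over the 3 DeltaKlf6 arrays than over the 3 wildtype arrays was found for 49 of 85 members (57.6%), below the 68.2% of all genes. The median SD of a member was 0.29 in wildtype and 0.28 in DeltaKlf6, against 0.24 and 0.35 over all genes. For the 35 members above the olfactory level it was 0.36 and 0.47, against 0.26 and 0.44 over all genes above that level. Because these are bulk samples, fewer cells of a type and less RNA per cell cannot be told apart in any value below.

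Among the fibrillar collagens, which form the load-bearing fibres, 5 of 11 were higher. Col3a1, the chain of type III collagen, was at 7.83, 8.35 and 7.88 in wildtype 1, 2 and 3 and at 8.48, 8.60 and 7.74 in DeltaKlf6 1, 2 and 3. The first pair of DeltaKlf6 libraries lay above every wildtype array and the third below, so the groups overlapped (log2 difference 0.25, SE 0.29, adjusted p = 0.992). Its 95% interval was -0.42 to 0.93. Col5a1 and Col5a2, whose type V chains set the width of fibrils, differed by -0.22 (SE 0.39) and -0.10 (SE 0.27). Col5a1 was at 4.53 in DeltaKlf6 3 and at 5.39 to 6.00 in the 5 other arrays. Col5a3, the third type V chain, was at 5.09 in DeltaKlf6 2 and at 3.16 to 4.02 elsewhere. It was the only collagen at least 1 log2 unit above the highest wildtype array in any library. The other Col5a3 probe set, which was dim, did not show this, with DeltaKlf6 2 at 2.45 inside the wildtype range of 2.04 to 2.97. Col2a1 was the collagen whose groups did not overlap, at 2.26 to 2.41 in wildtype and 2.44 to 2.76 in DeltaKlf6. This type II collagen belongs to cartilage, its level was not above the olfactory level and its difference was 0.24 (SE 0.20).

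On the probe sets used, basement membrane collagen was higher by group mean in 5 of 6 type IV chains, against 48.4% of all genes, and none passed the test. Just 3 of the 6 lay above the olfactory level. Col4a3 (0.025, SE 0.22) and Col4a4 (0.005, SE 0.25), counted as higher, were dim and had differences far smaller than their standard errors. Col4a1 and Col4a2 encode the chains of the common type IV trimer and are known to share a promoter region; in RefSeq (GRCm38.p6) their annotated starts lie 21 bases apart on opposite strands. Col4a2 was at 6.16, 5.96 and 5.72 in wildtype and at 7.04, 6.41 and 6.13 in DeltaKlf6, with the lowest DeltaKlf6 array just inside the wildtype range. Its difference of 0.58 (SE 0.28, adjusted p = 0.992) was the highest among collagens, with an interval of -0.08 to 1.23. Col4a1 was at 8.56, 7.92 and 8.53 in wildtype and at 9.44, 7.75 and 8.27 in DeltaKlf6 (difference 0.15, SE 0.43). In DeltaKlf6 1 both chains lay above the wildtype mean by about the same amount, 1.10 for Col4a1 and 1.09 for Col4a2, while in DeltaKlf6 2 they went opposite ways, -0.59 and 0.46. The other Col4a1 probe set placed DeltaKlf6 1 just 0.37 above the wildtype mean. Col4a5 was at 2.94 to 3.88 in DeltaKlf6, within its wildtype range of 2.66 to 4.51. Col4a6 (0.38, SE 0.24) was not above the olfactory level and its probe sets disagreed in sign. On its other probe set, also dim, the groups did not overlap, at 2.63 to 3.10 in wildtype and 2.31 to 2.49 in DeltaKlf6. That probe set differed by -0.51, and the mean of both by -0.066. It was singled out after its values were seen, and 5.91% of all genes did not overlap on the lower side.

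The remaining collagens showed no shared direction. Col18a1, a multiplexin whose tail gives endostatin and which hepatocytes themselves make, was steady on the probe set used: 8.95, 8.52 and 8.76 in wildtype and 8.70, 8.96 and 8.82 in DeltaKlf6. Its difference was 0.09 (SE 0.21), with an interval of -0.41 to 0.58. Its other probe set was less steady, at 8.35, 9.21 and 7.73 in DeltaKlf6 against 8.15 to 8.51 in wildtype. Col15a1, the other multiplexin, differed by -0.12 (SE 0.25). Of the beaded filament chains of type VI collagen 4 of 5 were higher, and the largest of these differences was 0.13, for Col6a2. Col6a1 (0.13, SE 0.39) overlapped between groups. Among 9 fibril-associated collagens, which decorate fibrils, 4 were higher. Col14a1 was at 6.39, 6.46 and 6.21 in wildtype and at 6.33, 6.75 and 4.26 in DeltaKlf6, so that a single library set its difference of -0.57 (SE 0.58). The next brightest Col14a1 probe set did not show this, with DeltaKlf6 3 at 4.24 inside the wildtype range of 3.95 to 4.76. Without DeltaKlf6 3 the Col14a1 difference was 0.18. Col16a1, Col25a1 and Col6a2 went the other way in that library, at 5.79, 4.88 and 5.44, each above every other array. The other Col6a2 probe set did not show this, with DeltaKlf6 3 at 4.53 inside the wildtype range of 4.35 to 4.75 and a group difference of -0.18. The dim collagens named by the rule were Col10a1 (-0.21), Col11a2 (-0.40), Col1a1 (-0.03, SE 0.24) and Col1a2 (0.04, SE 0.41).

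**Figure D2:**
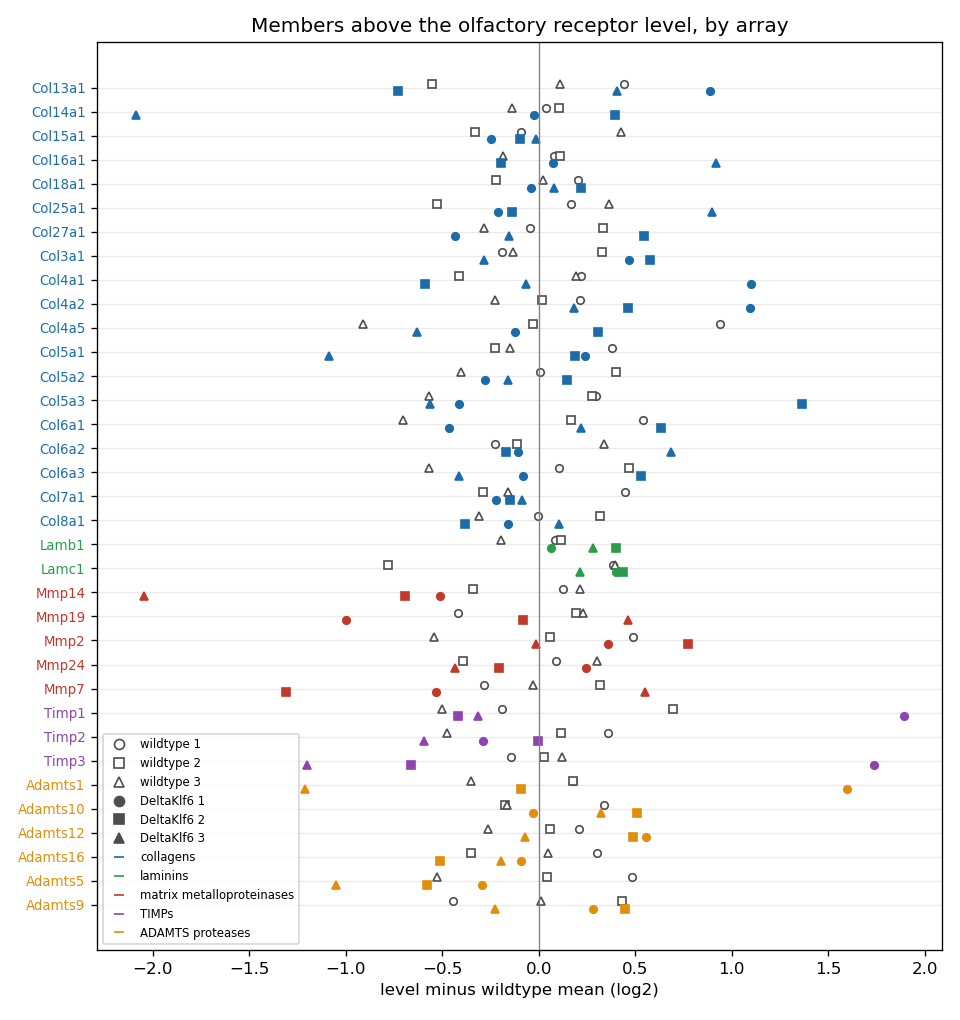
The 35 genes above the olfactory level, 1 per line, with each array's level minus the wildtype mean (log2) on the x axis. Open symbols are wildtype, filled symbols DeltaKlf6, and the shape gives the replicate number within each group. Timp1, Timp3 and Adamts1 stand more than 1.5 above the wildtype mean in DeltaKlf6 1, and Mmp14 and Col14a1 about 2 below it in DeltaKlf6 3.

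Laminin chains were mostly dim. Lamb1 and Lamc1, the beta and gamma chains found in most laminin trimers, were the 2 above the olfactory level. Lamb1 was at 5.93, 5.97 and 5.65 in wildtype and at 5.91, 6.25 and 6.13 in DeltaKlf6 (difference 0.25, SE 0.21). All 4 of its probe sets had this sign, but only the brightest lay above the olfactory level. Lamc1 was at 4.55 to 4.77 in all arrays but wildtype 2, at 3.55, and without that array its difference of 0.35 (SE 0.34) became -0.040. Lamc3, a gamma chain of brain and skin, was at 3.02, 3.50 and 3.14 in wildtype and at 2.47, 2.47 and 2.71 in DeltaKlf6. Its groups did not overlap (difference -0.67, SE 0.22, interval -1.18 to -0.16, adjusted p = 0.992), but its mean was not above the olfactory level. The other Lamc3 probe set had the same sign and a difference of -0.23. Lamb3, the beta chain of skin laminin, was at -0.63 (SE 0.30), also without a level above the yardstick. The alpha chains Lama1 (0.11), Lama2 (-0.01) and Lama3 (0.23) had differences smaller than their standard errors. Lama4 and Lama5, the alpha chains of vessels, were not analysed here.

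On the probe sets used, Mmp14 had the largest difference of the members. It encodes a membrane-anchored MMP that cuts fibrillar collagen and activates proMMP2. Its level was 7.37, 6.90 and 7.45 in wildtype and 6.73, 6.55 and 5.19 in DeltaKlf6, all 3 below the lowest wildtype array. The group means were 7.24 ± 0.30 and 6.16 ± 0.84 (SD, n = 3 each), a log2 difference of -1.09 (SE 0.41, interval -2.03 to -0.14). The difference did not pass (limma unadjusted p = 0.030, adjusted p = 0.992). It was -0.60 without DeltaKlf6 3, the lowest library, -1.28 without DeltaKlf6 2 and -1.37 without DeltaKlf6 1. The gene's other probe set lay near the olfactory level and differed by -0.14, and the mean of both differed by -0.61, close to Lamb3 at -0.63. Of 13 sinusoidal endothelial markers, whose cells also use Mmp14, 9 were lower and 4 higher, against 51.6% of all genes lower. The list means were 6.41 to 6.52 in wildtype and 6.38, 6.49 and 6.12 in DeltaKlf6 1, 2 and 3. Just 1 of the 13, the receptor Kdr (-0.87, SE 0.30), did not overlap between groups, against 5.91% of all genes on the lower side. The part of these cells in the Mmp14 value was not tested.

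Partners of Mmp14 and the other MMPs above or at the olfactory level overlapped between groups. Mmp2, the gelatinase that Mmp14 activates, was at 3.93, 3.50 and 2.90 in wildtype and at 3.80, 4.22 and 3.43 in DeltaKlf6 (0.37, SE 0.33). Mmp9, the gelatinase of neutrophils and macrophages, was at 3.09 to 3.52 and at 3.50 to 3.78 (0.30, SE 0.22), on the olfactory level itself. Its other probe set differed by -0.11, and the mean of both by 0.095. The 10 neutrophil markers other than Mmp8 and Mmp9 had 5 higher and 5 lower, and their mean level was 4.98 to 5.27 in wildtype and 4.89 to 5.31 in DeltaKlf6. Mmp19 was at 3.68, 4.30 and 4.33 against 3.11, 4.02 and 4.57 (-0.21, SE 0.39), and its other probe set had the opposite sign. Mmp7, known as matrilysin, was at 4.16, 4.77 and 4.42 in wildtype and at 3.92 and 3.14 in DeltaKlf6 1 and 2, the latter 1.02 below the lowest wildtype array. In DeltaKlf6 3 it lay 0.23 above the highest one (-0.43, SE 0.45). Mmp24, another membrane-type MMP, was at 3.56 to 4.24 in DeltaKlf6 and 3.60 to 4.30 in wildtype.

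Most soluble MMPs were dim. The collagenases Mmp8 (-0.17, SE 0.23) and Mmp13 (0.09, SE 0.21) and the macrophage elastase Mmp12 (0.40, SE 0.32) were not above the olfactory level, nor were Mmp16 (-0.38, SE 0.24) and Mmp23 (-0.37, SE 0.24). Mmp12 was at 3.91 in DeltaKlf6 1 and at 2.70 to 3.30 elsewhere. Mmp16 had groups that did not overlap, at 2.41 to 3.04 and at 2.14 to 2.34, all below the yardstick. On its other probe sets the groups overlapped, with differences of 0.07 and -0.15.

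Some MMP genes share letters in their promoters that the choice of members did not use. TGANTCA, where N is any base, was searched on both strands in the 250 bases before each annotated start in RefSeq (GRCm38.p6). AP-1 (Fos and Jun proteins) is known to bind the forms with G or C at N. The counts here take any base at N, and the Mmp20 match has A there. TGANTCA was found in 8 of the 13 MMPs with such a window (61.5%), against 7.82% of 27025 genes. It was in 1 of 33 collagens (Col6a1) and in none of the laminins, TIMPs or ADAMTS proteases with a window. This motif was chosen after the values had been seen. The 8 genes lie close together on chromosome 9, so they need not be independent cases, and the shares were not tested. Their windows are shown because the motif is at a similar place, within 95 bases of the start, with the match in capitals and 11 bases on either side:
Mmp1a (chr9:7464057-7464085, plus strand): gttgtcaaccaTGAGTCAcatagcctctg
Mmp1b (chr9:7388102-7388130, minus strand): gttacaaagccTGAGTCAtatagcctctg
Mmp3 (chr9:7445765-7445793, plus strand): ggaagcaattaTGAGTCAgttttcgggtg
Mmp7 (chr9:7692016-7692044, plus strand): aagtgtgcaaaTGAGTCAcctatttccac
Mmp10 (chr9:7502268-7502296, plus strand): tagcacccatgTGAGTCAtgcttagtgac
Mmp12 (chr9:7347319-7347347, plus strand): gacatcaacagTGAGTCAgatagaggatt
Mmp13 (chr9:7272468-7272496, plus strand): ccccaaagtggTGACTCAtcactatcatg
Mmp20 (chr9:7628125-7628153, plus strand): catttgagacaTGAATCAtcacttacagg
Of these 8 genes only Mmp7 lay above the olfactory level, and their differences ranged from -0.43 for Mmp7 to 0.40 for Mmp12. A match is a description of the letters and not a site shown to be bound.

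Timp1, Timp3 and Adamts1 were each highest in the library labelled DeltaKlf6 1. Timp1, the inhibitor that stellate cells and injured hepatocytes release, was at 4.93, 5.81 and 4.62 in wildtype and at 7.01, 4.70 and 4.80 in DeltaKlf6. Timp3, which is bound to the matrix and also blocks ADAMTS enzymes, was at 6.00, 6.16 and 6.26 in wildtype and at 7.88, 5.48 and 4.94 in DeltaKlf6. Adamts1, a proteoglycan-cutting protease, was at 5.88, 5.88 and 5.35 in wildtype and at 7.30, 5.61 and 4.49 in DeltaKlf6. In each gene DeltaKlf6 1 was the highest of the 6 arrays, by 1.62 over the highest wildtype array for Timp3, by 1.42 for Adamts1 and by more than 1 log2 unit for Timp1. The other DeltaKlf6 arrays lay below the wildtype mean. The group differences of 0.38 (SE 0.62), -0.04 (SE 0.67) and 0.10 (SE 0.62) therefore stand for no animal, and none passed (adjusted p = 0.992, 0.998 and 0.997). Without DeltaKlf6 1 they were -0.37, -0.93 and -0.65. In that library all 3 Klf6 probe sets were also above every wildtype array.

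**Figure D3:**
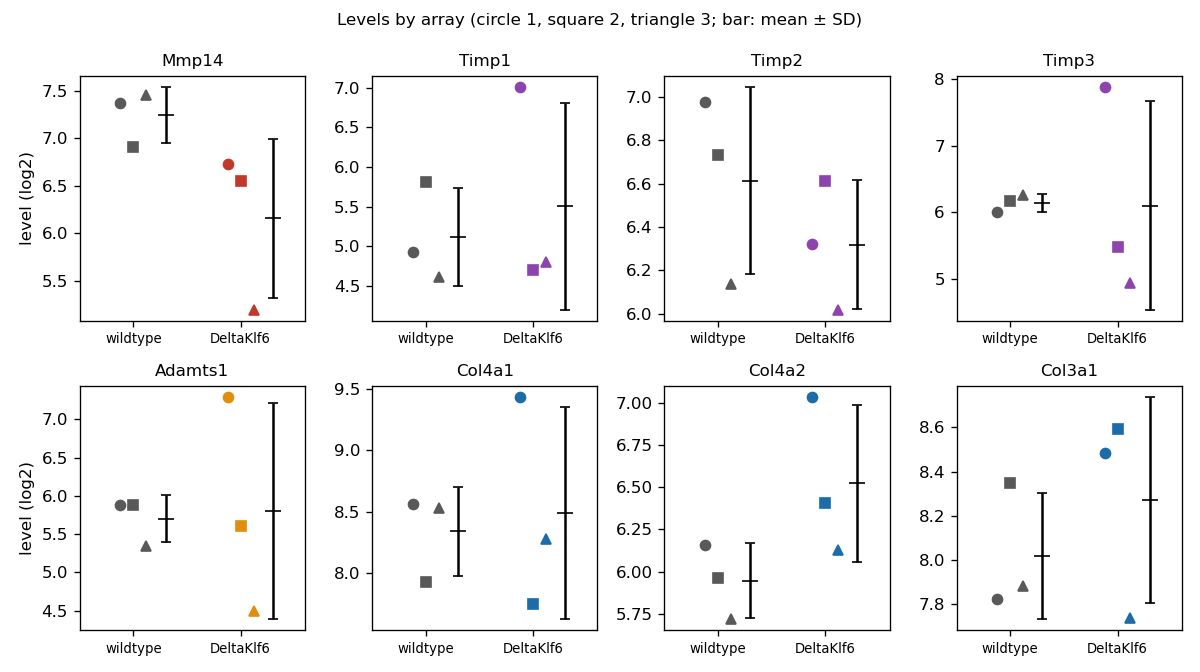
Levels (log2) of 8 genes in each array, wildtype in grey and DeltaKlf6 in colour, with the mean ± SD of 3 animals beside the points. All 3 DeltaKlf6 arrays lie below wildtype for Mmp14, and DeltaKlf6 1 alone (circle) lies far above wildtype for Timp1, Timp3 and Adamts1.

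For Timp3 the pattern appeared on more than 1 probe set. The next brightest probe set was at 5.50, 5.74 and 5.66 in wildtype and at 7.22, 4.52 and 4.83 in DeltaKlf6, and the third had DeltaKlf6 1 at 4.79 against 3.19 to 4.01 in wildtype. The fourth lay below the olfactory level and was highest in DeltaKlf6 3. Timp2, which both inhibits MMPs and helps Mmp14 activate proMMP2, was at 6.97, 6.73 and 6.14 in wildtype and at 6.32, 6.61 and 6.02 in DeltaKlf6 (-0.30, SE 0.28). Its 5 probe sets were split, 3 lower and 2 higher. Timp1 and Adamts1 had 1 named probe set each. Over all members, 42 had several probe sets, and in 23 of these the probe sets disagreed in sign; among the 11 with several probe sets above the olfactory level, 6 did.

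**Figure D4:**
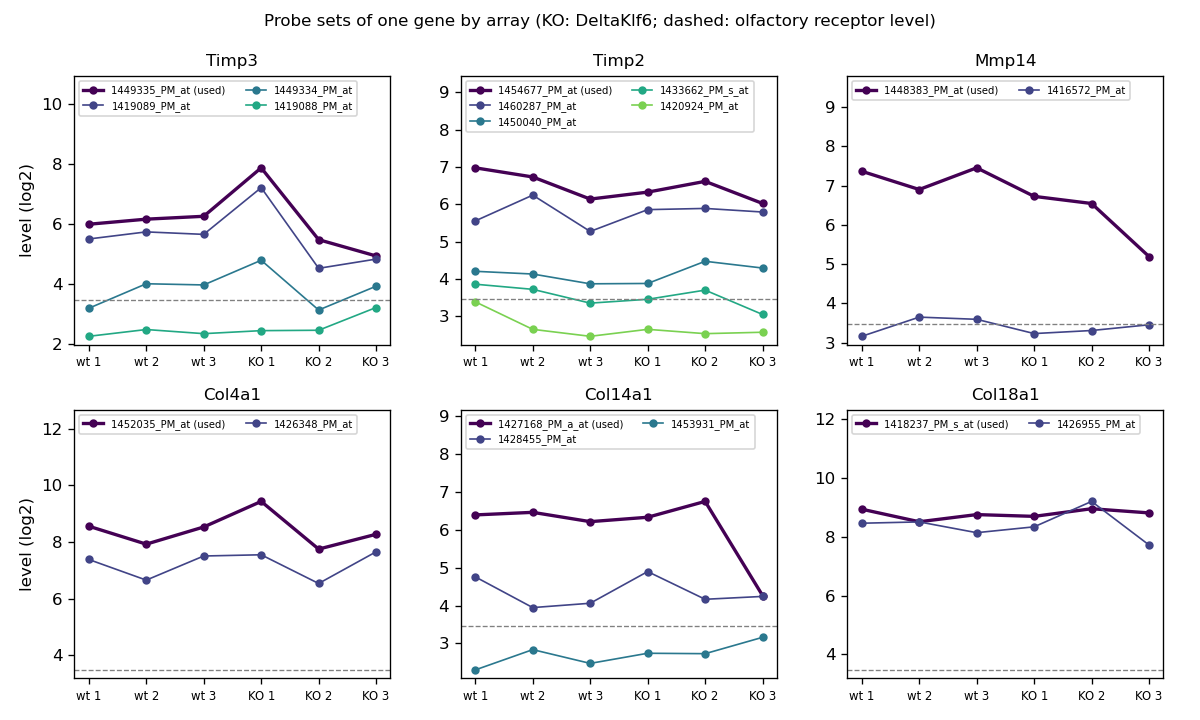
Level (log2) of every single-gene probe set of 6 genes in the 6 arrays (wt: wildtype, KO: DeltaKlf6), with the one used drawn thick and the olfactory level dashed; lines join the values of a probe set and imply no order of animals. The 3 brightest Timp3 probe sets peak together in DeltaKlf6 1, whereas the low Mmp14 and Col14a1 values of DeltaKlf6 3 appear on 1 probe set each.

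The promoters of Timp1, Timp3, Adamts1 and Mmp14 are shown as a selection: the first 3 were high in 1 library and above the olfactory level, and Mmp14 had groups that did not overlap. Each holds the 250 bases before the annotated start (RefSeq, GRCm38.p6), 5' to 3' on the gene's strand. Capitals mark GGGCGG and CCACCC on either strand, the GC box and CACCC letters that zinc-finger proteins of the Sp and Klf families are known to bind; these motifs cannot overlap TGANTCA here, which has no match in them:
Timp1 (chrX:20869916-20870165, plus strand): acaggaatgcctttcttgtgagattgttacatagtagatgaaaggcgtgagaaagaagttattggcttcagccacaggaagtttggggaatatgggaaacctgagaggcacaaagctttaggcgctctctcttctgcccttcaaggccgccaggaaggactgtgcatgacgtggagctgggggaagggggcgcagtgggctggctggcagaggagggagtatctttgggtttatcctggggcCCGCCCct
Timp3 (chr10:86300162-86300411, plus strand): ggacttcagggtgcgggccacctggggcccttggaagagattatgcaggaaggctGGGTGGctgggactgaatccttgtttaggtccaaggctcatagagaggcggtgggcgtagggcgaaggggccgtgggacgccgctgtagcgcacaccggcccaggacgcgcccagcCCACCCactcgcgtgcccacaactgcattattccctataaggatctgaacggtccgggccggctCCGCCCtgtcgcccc
Adamts1 (chr16:85803114-85803363, minus strand): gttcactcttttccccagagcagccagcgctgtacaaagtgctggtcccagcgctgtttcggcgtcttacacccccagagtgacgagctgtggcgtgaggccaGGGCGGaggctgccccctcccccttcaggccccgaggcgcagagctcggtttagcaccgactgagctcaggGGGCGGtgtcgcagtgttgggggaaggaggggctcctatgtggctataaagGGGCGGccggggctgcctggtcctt
Mmp14 (chr14:54431348-54431597, plus strand): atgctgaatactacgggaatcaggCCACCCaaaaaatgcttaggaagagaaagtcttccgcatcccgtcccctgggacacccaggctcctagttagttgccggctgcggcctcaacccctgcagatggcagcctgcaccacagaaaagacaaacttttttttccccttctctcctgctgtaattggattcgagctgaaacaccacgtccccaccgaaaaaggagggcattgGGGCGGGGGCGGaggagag
Timp1 held 1 GGGCGG, Timp3 held 1 with 2 CCACCC, Adamts1 held 3 GGGCGG and Mmp14 held 2 side by side with 1 CCACCC. Over the 59 members with a window, 32 (54.2%) held GGGCGG and 26 (44.1%) held CCACCC, against 35.4% and 30.6% of all genes with one. The families differed. Of 33 collagens 60.6% held GGGCGG and 48.5% CCACCC, whereas the 13 MMPs lay below all genes, at 23.1% and 15.4%. GGGCGG was in 1 of 4 laminins, 3 of 3 TIMPs and 5 of 6 ADAMTS proteases, and CCACCC in 4, 2 and 2 of them. These shares were not tested and not matched for GC content, which was 54.4% to 65.6% in the 4 windows shown. Here too a match is not a site shown to be bound.

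None of the other ADAMTS proteases passed the test. Adamts5, which like Adamts1 cuts aggrecan-type proteoglycans, was at 4.62, 4.18 and 3.60 in wildtype and at 3.84, 3.55 and 3.08 in DeltaKlf6 (-0.64, SE 0.32, adjusted p = 0.992). Its groups overlapped, and 2 of its 4 probe sets had the opposite sign. Adamts9 overlapped on the probe set used (0.17, SE 0.30). On another Adamts9 probe set, singled out after its values were seen, the groups did not overlap, at 2.77 to 3.27 in wildtype and 3.76 to 3.86 in DeltaKlf6. The mean of this probe set was not above the olfactory level, and 3.41% of all genes did not overlap on the higher side. On the remaining Adamts9 probe set DeltaKlf6 3 was at 5.54, and DeltaKlf6 1 and 2 were at 3.28 and 2.96. Adamts10 (0.27, SE 0.25), Adamts12 (0.32, SE 0.26) and Adamts16 (-0.27, SE 0.25) were above the olfactory level with differences near their standard errors. Adamts15 was at 4.73 in DeltaKlf6 1 and at 2.64 to 3.16 in the 5 other arrays. It joins Timp1, Timp3 and Adamts1 among the members far above wildtype in that library, with a mean not above the olfactory level. Adamts8 (0.45, SE 0.32) and Adamts18 (-0.40, SE 0.23) were dim as well.

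Counted by library, members left the wildtype range in shares near or below those of all genes. In DeltaKlf6 1 there were 21 above it (against 29% of all genes) and 21 below (against 30.9%), each 24.7% of members. DeltaKlf6 2 had 22 above (25.9%, against 28%) and 24 below (28.2%, against 27.6%), and DeltaKlf6 3 had 23 above (27.1%, against 27.2%) and 19 below (22.4%, against 35.1%). Few left it by at least 1 log2 unit. In DeltaKlf6 1 there were 4 above (4.71%, against 2.09% of all genes) and 0 below (against 2.22%). DeltaKlf6 2 had 1 above, Col5a3 (1.18%, against 1.37%), and 1 below, Mmp7 (against 0.538%). DeltaKlf6 3 had 0 above (against 1.48%) and 3 below, Col14a1, Mmp14 and Timp3 (3.53%, against 3.24%). Timp3 was thus far above wildtype in one DeltaKlf6 animal and far below in another, a range of 2.94 log2 units, against 0.27 in wildtype.

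Genes that build, hold or sense the same matrix were read from 4 lists, and 0 of their measured genes passed in either direction. Collagen synthesis and crosslinking had 12 of 21 higher (median 0.05). Here 3 of the 21 genes had groups that did not overlap, all on the lower side, against 5.91% of all genes on that side. They were the crosslinking enzyme Loxl3 (-0.70, SE 0.25), the prolyl hydroxylase subunit P4ha2 (-0.70, SE 0.27) and the dim P3h3 (-0.35). The hydroxylase P3h1 was at 0.65 (SE 0.29). Other matrix proteins had 15 of 22 higher (median 0.09), with Npnt (0.60) and Tnc (0.54), both not above the olfactory level, and Sparc (0.38), which binds collagen and was at 7.08 to 7.22 against 6.46 to 7.05. Matrix receptors had 13 of 21 lower (median -0.06). Dag1, the laminin receptor dystroglycan, was at 7.64 to 7.75 in DeltaKlf6 and 7.90 to 8.38 in wildtype (-0.46, SE 0.21), Cd44 at 0.41 and the dim Itga5 at -0.33. The plasminogen system and other protease control had 10 of 16 lower (median -0.24). A2m, a plasma inhibitor that traps many proteases, was at 10.59, 9.31 and 10.08 in wildtype and 8.01, 6.95 and 9.72 in DeltaKlf6 (-1.77, SE 0.66). Reck, a membrane-bound MMP inhibitor, was highest in DeltaKlf6 1, at 5.79 against 3.35 to 4.16 in wildtype, as Timp1 and Timp3 were. Plaur, the urokinase receptor, differed by 0.60.

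No marker of a liver cell type passed the test. Of 14 markers of stellate cells and fibroblasts 7 were higher, and 9 lay above the olfactory level. Their mean level was 4.83 to 4.92 in wildtype and 4.95, 5.12 and 4.60 in DeltaKlf6 1, 2 and 3. They were lowest in DeltaKlf6 3, as Col14a1 and Col5a1 were, and as the endothelial and hepatocyte markers were. In that library the median of all genes above the olfactory level was -0.20 relative to wildtype. Des differed by 0.41, Pdgfrb by 0.26 and the dim Pdgfra by -0.33. Of 14 markers of Kupffer cells and other macrophages 10 were higher. Cd163 at -1.17 (SE 0.23) and Mpeg1 at 0.58 (SE 0.25) did not overlap between groups, on opposite sides. Over all genes 5.91% did not overlap on the lower side and 3.41% on the higher side. The mean level of the 14 markers was 7.19 to 7.54 in wildtype and 7.38, 7.95 and 7.28 in DeltaKlf6. Cholangiocyte and mesothelial markers had 1 of 8 and 1 of 7 above the olfactory level, with means of 2.87 to 3.43 and 2.77 to 3.24 over the 6 arrays. Hepatocyte markers had 8 of 12 higher, with means of 11.17 to 11.20 in wildtype and 11.51, 11.51 and 11.06 in DeltaKlf6. The part of cell makeup in the values of the members was not tested.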

How the data were processed

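Per the submitters' processing notes, the authors made the deposited log2 values with RMA in Affymetrix Expression Console 1.2.1; the log base is inferred from the highest value, 13.9. RNA was extracted with TRIzol and labelled for 3' arrays, per the labels' protocols. Of 45141 probe sets, 28898 had 1 gene symbol, 551 several and 15588 none here, and 104 were controls; all 85 members matched RefSeq by Entrez number. The build of the authors' annotation is not given in the sources used here. DeltaKlf6 was compared with wildtype by limma 3.58.1 in R 4.3.3 (lmFit, eBayes, genotype as factor, two-sided), with Benjamini-Hochberg adjustment over 17097 genes and a threshold of 0.05. Intervals (95%) and SEs are limma's moderated ones. Labels call the samples animals, and 3 per group limits the precision. GGGCGG and CCACCC were chosen for promoters at the outset and TGANTCA later. The calculation was tested on simulated data. Probe set choice, dim genes, normalization, variance model, array weights, a replicate block and single arrays were varied.

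Members, lists and named genes were chosen with earlier results of these data known. Named genes are, per family, up to 3 of smallest unadjusted p in each direction, the 2 widest over DeltaKlf6, those not overlapping with at least 1.5-fold, and 21 measured genes best known in liver; per list, up to 3 of smallest p. Others were named after their values were seen. Probe sets of different genes have no common scale, so levels were not compared between genes.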

Additional observations from a re-analysis of the deposited data

How the results depend on the processing

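With each alternative 0 genes and 0 members passed the threshold by limma; the number of members at an unadjusted p under 0.05 ran from 1 to 5, and the smallest adjusted p of a member was 0.457, without DeltaKlf6 3. Over all genes 631 had an unadjusted p under 0.05, against 388 without wildtype 1, 379 without wildtype 3, 1165 without DeltaKlf6 2 and 1546 without DeltaKlf6 3. Without dim genes the family medians were 0.086 for collagens, 0.30 for laminins and -0.21 for MMPs. With single arrays left out the median ran from -0.054, without DeltaKlf6 1, to 0.18 for ADAMTS proteases (0.0052 without wildtype 1) and from -0.15 to 0.013 for MMPs, whose median was positive without DeltaKlf6 2. It ran from -0.37 to 0.54 for TIMPs, from -0.033 to 0.21 for laminins and from -0.033 to 0.057 for collagens. Averaging all probe sets of a gene turned the sign of Adamts16 (0.051), Col4a6 (-0.066), Mmp19 (0.17) and Timp3 (0.11). Quantile normalization turned Col5a2 (0.0062) and Timp3 (0.046), and array weights Col1a1 (0.033), Col1a2 (-0.21) and Timp3 (0.16). Leaving out 1 array turned the sign of these differences, none of them called: Adamts1 (-0.65 to 0.75), Adamts15 (-0.27 to 0.77), Col14a1 (-1.06 to 0.18), Col15a1 (-0.29 to 0.093), Col18a1 (-0.026 to 0.19), Col1a1 (-0.17 to 0.11), Col1a2 (-0.43 to 0.33), Col4a1 (-0.33 to 0.52), Col5a2 (-0.30 to 0.10), Col5a3 (-0.49 to 0.47), Col6a1 (-0.22 to 0.43), Lama1 (-0.11 to 0.41), Lama2 (-0.18 to 0.11), Lamc1 (-0.040 to 0.55), Mmp13 (-0.019 to 0.18), Mmp19 (-0.54 to 0.19), Mmp7 (-0.92 to 0.0087), Timp1 (-0.37 to 0.79) and Timp3 (-0.93 to 0.54). Mmp14 stayed negative in every alternative run, from -1.37 to -0.60, as did Lamc3 in each that kept dim genes, from -0.77 to -0.45. The cause of these shifts was not tested.

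The replicate numbers are shared by both groups, but same-numbered arrays did not all deviate together (r = -0.005, 0.26 and 0.084 over genes for numbers 1, 2 and 3), and 3 of 6 arrays correlated best with their own number. With the replicate block 0 genes passed, 703 had an unadjusted p under 0.05 against 631 without it. In this balanced layout the block cannot alter a group difference.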
